A study of Homo sapiens with 6 samples.

Results

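The box C/D snoRNAs of 6 prostate cancer cell lines were followed through the gene tables of the study. Members were the gene names that begin with SNORD and a number and that reached at least 10 counts in at least 1 of the 6 libraries, with table entries of the same name summed. The imprinted SNORD113, SNORD114, SNORD115 and SNORD116 copies were left out. This rule kept 104 of 168 SNORD names and of 47032 gene names in all. Of the 104 members, 102 had counts in all 6 libraries and 92 had at least 10 counts in each. At the edge of the minimum, SNORD42 reached 8 counts and SNORD32B and SNORD73 reached 9 in their highest library, and SNORD88, the lowest member kept, reached 12.

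Box C/D snoRNAs are short nucleolar RNAs that carry a box C near the 5′ end and a box D near the 3′ end, which together bind the proteins fibrillarin, NOP56, NOP58 and SNU13. Most of them pair with ribosomal RNA and direct 2′-O-methylation of one nucleotide there, while a few, of which U3 is the best known, act in the cleavage of the ribosomal RNA precursor. Most human members lie in introns of host genes, many of which encode ribosomal proteins or translation factors, and are released from the spliced intron by trimming, while U3 is transcribed from genes of its own.

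The study compared 3 castration-sensitive lines with 3 castration-resistant lines named after the same parents, with 1 library of total RNA per line and no treatment beyond the growth medium. RPMI was the medium of LNCaP (LnCaP in the labels) and LAPC4 and DMEM that of VCaP, in each case with 10% fetal bovine serum. The resistant lines LNCaP-abl (LnCaP-abl in the labels), VCaP-CR and LAPC4-CR were all grown in RPMI with 10% charcoal-stripped serum, which is depleted of steroids, and B27 supplement. Resistance and medium therefore changed together in every pair, and for VCaP the base medium as well, so the effects of state and medium cannot be told apart. How often each line had been passaged, and whether the resistant lines were single clones, is not given in the sources used here.

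The libraries held between 8661337 counts in LNCaP and 22433655 counts in LAPC4-CR. Luminal prostate epithelium markers summed to between 253 and 1074 FPKM. Basal epithelium markers summed to at most 2.46 FPKM and leukocyte markers to at most 2.80 FPKM. Endothelial markers summed to at most 1.81 FPKM, from VWF and CDH5 alone, as the listed marker PECAM1 had no value. Fibroblast markers summed to at most 3.94 FPKM in 5 libraries and to 45.7 FPKM in VCaP-CR, of which LUM (lumican, a matrix proteoglycan) made up 44.8 FPKM; the part of this in the snoRNA values was not tested.

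Sequences of the members on which the results turn are shown first. They were taken from GENCODE release 29 (GRCh38), in which 91 of the 104 members were matched, 79 by gene identifier and 12 by symbol. Capitals mark TGATG, the core of box C, and CTGA, box D. SNORD3A, the most abundant member (U3; chr17:19188016-19188232, plus strand), SNORD104, the most abundant per length (chr17:64146083-64146152, plus strand), and SNORD89, the member that was highest in LNCaP-abl relative to LNCaP (chr2:101272936-101273049, minus strand), are followed by members that were lower in the resistant line of all pairs, SNORD16 (chr15:66502812-66502910, minus strand), SNORD88A (chr19:50799442-50799532, minus strand), SNORD88B (chr19:50799032-50799122, minus strand) and SNORD88C (chr19:50802328-50802418, minus strand). SNORD12B (chr20:49280319-49280409, plus strand) and SNORD12C (chr20:49278940-49279028, plus strand) went against their host gene in the LNCaP pair, and SNORD123 (chr5:9548836-9548905, plus strand) was found almost only in the LAPC4 lines.
SNORD3A: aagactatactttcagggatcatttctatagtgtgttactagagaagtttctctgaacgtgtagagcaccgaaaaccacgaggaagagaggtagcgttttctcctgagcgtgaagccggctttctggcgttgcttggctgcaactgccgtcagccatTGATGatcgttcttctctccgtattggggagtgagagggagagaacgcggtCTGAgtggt
SNORD104: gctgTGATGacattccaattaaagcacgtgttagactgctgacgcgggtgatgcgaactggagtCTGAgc
SNORD89: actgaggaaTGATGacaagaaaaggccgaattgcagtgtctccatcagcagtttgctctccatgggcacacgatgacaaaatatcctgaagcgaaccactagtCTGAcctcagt
SNORD16: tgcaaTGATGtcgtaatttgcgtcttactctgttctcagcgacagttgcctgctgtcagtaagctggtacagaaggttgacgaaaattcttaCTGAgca
SNORD88A: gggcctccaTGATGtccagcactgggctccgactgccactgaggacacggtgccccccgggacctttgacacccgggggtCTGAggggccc
SNORD88B: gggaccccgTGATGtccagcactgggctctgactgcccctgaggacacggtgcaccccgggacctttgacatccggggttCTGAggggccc
SNORD88C: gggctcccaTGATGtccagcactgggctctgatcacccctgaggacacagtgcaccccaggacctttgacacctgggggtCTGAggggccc
SNORD12B: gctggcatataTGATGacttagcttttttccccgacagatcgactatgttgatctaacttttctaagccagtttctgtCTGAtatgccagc
SNORD12C: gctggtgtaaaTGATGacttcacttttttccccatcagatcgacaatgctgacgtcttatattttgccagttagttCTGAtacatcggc
SNORD123: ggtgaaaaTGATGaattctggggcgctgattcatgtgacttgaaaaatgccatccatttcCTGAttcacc

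Of the 91 matched members, 76 held TGATG within the first 20 bases and 78 held CTGA within the last 15 bases on the strand of the gene, and 69 (75.8%) held both. The same search of the 149 transcripts of SNORA genes, which are box H/ACA snoRNAs, found both in 0. SNORD3A had its marked TGATG inside the RNA, starting at base 158, and its CTGA at base 209. The matched members were 64 to 237 nucleotides long, with a median of 80, and their GC content lay between 31.2% and 70.3%, with a median of 42.9%. The SNORD88 copies were at the GC-rich end, with 70.3% in SNORD88A, and were 87.9% to 91.2% identical to each other.

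Box C/D snoRNAs took a smaller share of the counts in LNCaP-abl and LAPC4-CR than in their parents, while the share in VCaP-CR was closer to that in VCaP. The 104 members held 1.75% of all counts in LNCaP and 0.766% in LNCaP-abl. They held 1.95% in LAPC4 against 0.922% in LAPC4-CR. In VCaP they held 1.80% and in VCaP-CR 1.66%. The 95% Wilson intervals are narrow (1.74% to 1.75% in LNCaP and 0.761% to 0.771% in LNCaP-abl) and cover counting error only, not the spread between cultures. In these bulk libraries, fewer snoRNAs in every cell and fewer cells with them cannot be told apart. The 2 low libraries, LNCaP-abl and LAPC4-CR, are separated from the other 4, which lie between 1.66% and 1.95%.

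**Figure D1:**
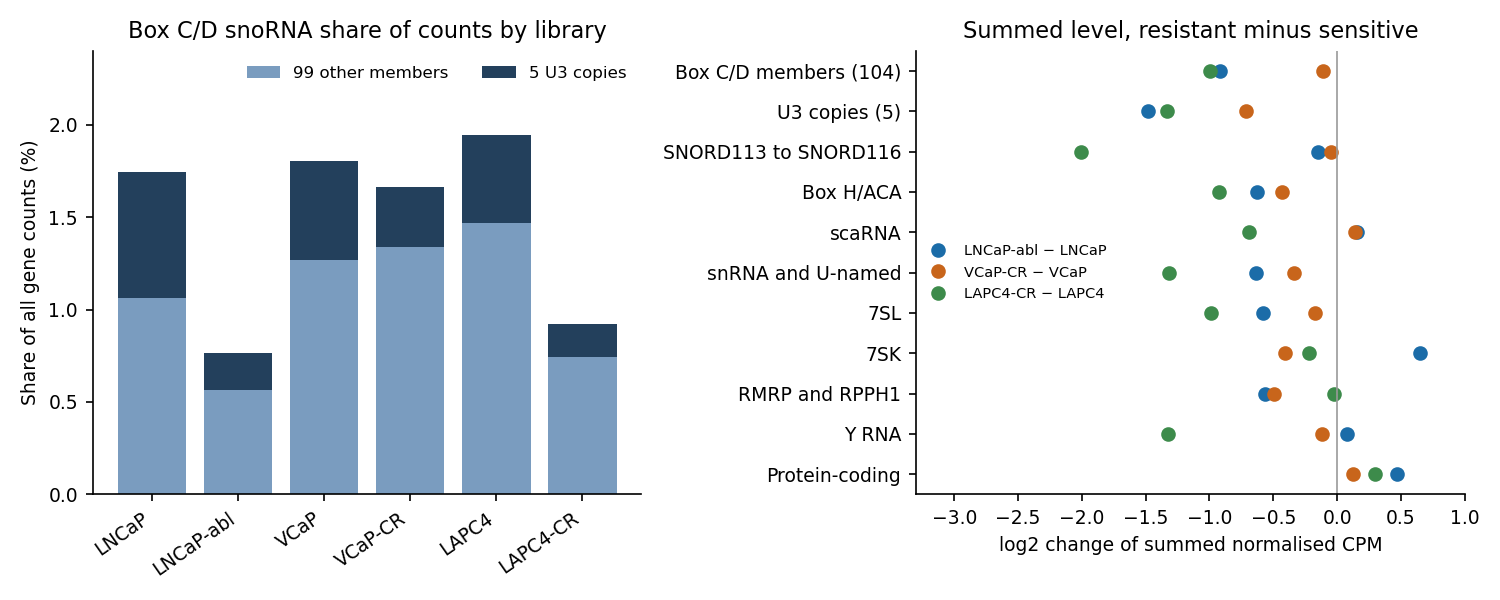
Left, share of all gene counts (%) held by the 104 box C/D snoRNAs in each library, split into the 5 U3 copies (dark) and the 99 other members (light). Right, log2 change (resistant minus sensitive) of the summed normalised CPM of classes of short RNA and of protein-coding genes, 1 point per pair; the box C/D sum lies at -0.91, -0.11 and -1.0.

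On the scale of normalised CPM, counts scaled by a common library size after TMM correction, the members summed to 14498 in LNCaP against 7694 in LNCaP-abl, to 20697 in VCaP against 19215 in VCaP-CR, and to 18001 in LAPC4 against 9013 in LAPC4-CR. The resistant lines were thus 1.88-fold, 1.08-fold and 2.0-fold lower. The log2 changes of -0.91, -0.11 and -1.0 had a mean of -0.67 ± 0.49 (SD, n = 3 pairs), and a two-sided exact sign-flip permutation test over the 3 pairs gave p = 0.25, the smallest this design allows. Without SNORD3A the VCaP sum was 0.04 higher in the resistant line on the log2 scale, so the direction in that pair rested on that member.

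Other short RNAs were also lower in most resistant lines. For the LNCaP, VCaP and LAPC4 pairs in that order, the box H/ACA snoRNAs, which guide pseudouridylation, had summed log2 changes of -0.63, -0.43 and -0.92. The small nuclear RNA names, which begin with RNU or are U and a number, had -0.63, -0.34 and -1.31. This class was taken by name, was not limited to spliceosomal RNAs, and may hold box C/D RNAs with U names. The RNA of the signal recognition particle, 7SL, had -0.58, -0.17 and -0.99. Their order over the pairs was that of the box C/D sum, with LAPC4 lowest. The 7SK RNA, which holds the elongation factor P-TEFb inactive, went the other way in the LNCaP pair, with 0.65, -0.41 and -0.22. Protein-coding genes summed 0.47, 0.13 and 0.30 higher. The sources used here do not give RNA quality or the recovery of short fragments in each library, so their part in the box C/D values was not tested.

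Member by member, most box C/D snoRNAs were lower in LNCaP-abl and LAPC4-CR than in the parent, and the VCaP pair did not share this. A change is here the difference of log2(normalised CPM + 0.5), which understates the change of the least abundant members. With 1 library per state these changes have no replicate check and no test. In the LNCaP pair 47 of 104 members were at least 2-fold lower, against 4.65% of all 36946 genes tested, and 1 was at least 2-fold higher, against 8.22%. In the LAPC4 pair 58 were at least 2-fold lower, against 4.71% of genes, and 0 were at least 2-fold higher, against 5.58%. In the VCaP pair 2 were at least 2-fold lower, against 1.85%, and 3 at least 2-fold higher, against 2.85%. The shares of the VCaP pair were close to those of all genes, while 45.2% and 55.8% of the members were at least 2-fold lower in the LNCaP and LAPC4 pairs.

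The members' median change was -0.86 in LNCaP-abl against LNCaP, 0.21 in VCaP-CR against VCaP and -1.07 in LAPC4-CR against LAPC4, beside medians of -0.01, 0.03 and -0.01 over all genes tested. Counting any size of change, 91 members were lower in LNCaP-abl (51.7% of genes), 35 in VCaP-CR (48.0%) and 101 in LAPC4-CR (50.9%). In all 3 pairs 34 members were lower (15.6% of genes) and 0 were higher (15.5%). The 108 box H/ACA and small Cajal body snoRNAs that passed the same minimum had medians of -0.28, -0.23 and -0.85. Scaling by library totals or by protein-coding genes alone moved the all-gene median of the LNCaP pair to -0.16 and -0.11 and the members' median there to -1.12 and -1.05.

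**Figure D2:**
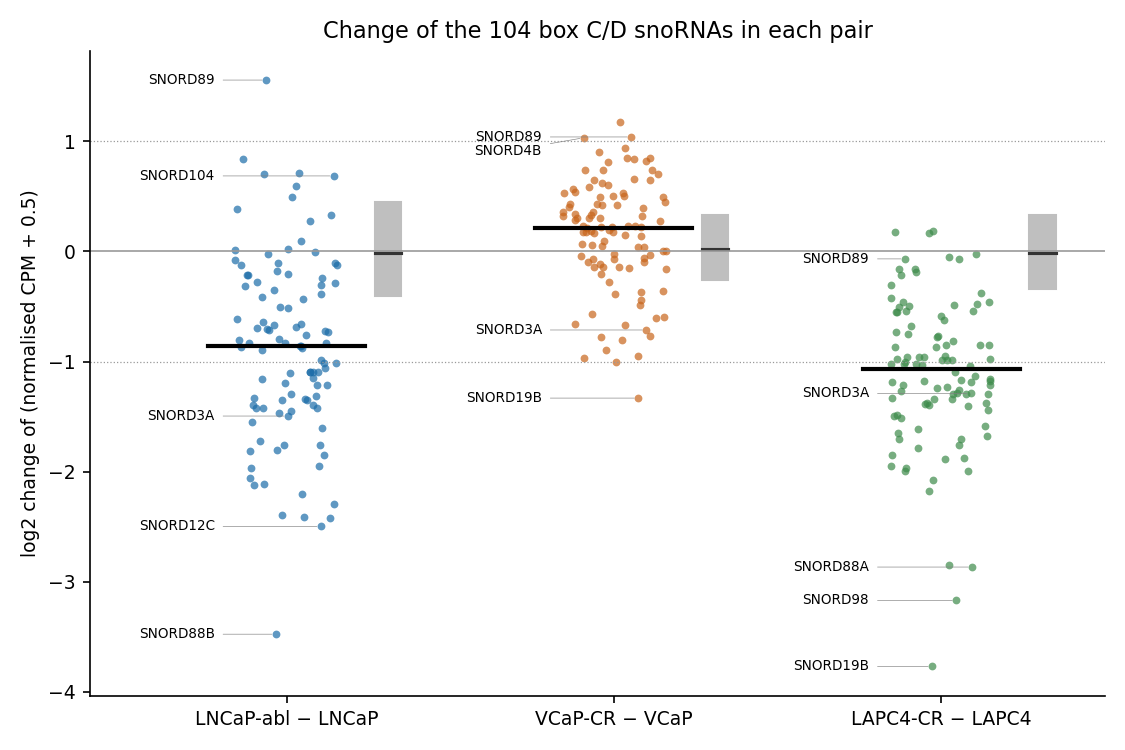
Each point is 1 of the 104 box C/D snoRNAs, and the vertical axis is the change in log2(normalised CPM + 0.5) from the sensitive to the resistant line of each pair; black bars are the members' medians, grey boxes span the quartiles of all 36946 genes tested with their median, and dotted lines mark 2-fold. The bars lie at -0.86, 0.21 and -1.07, and points are spread over several log2 units within each pair.

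Across the 3 pairs together, no box C/D snoRNA passed the test. The edgeR quasi-likelihood test with the parental line as a block and Benjamini-Hochberg adjustment over 36946 genes called 0 members and 0 genes at 5% in either direction (0.0% of genes). The smallest adjusted p of a member was 0.418, shared by SNORD16, SNORD3B-1 and SNORD3B-2. At an unadjusted p under 0.05, 34 members were lower (3.18% of genes) and 1, SNORD89, was higher (4.53% of genes). The edgeR test without the filter on low counts called 8 members lower (0.183% of genes) and 0 higher (0.254%). DESeq2 called 7 lower (0.189% of genes) and 0 higher (0.325%). Leaving out the LNCaP pair gave 3 members lower (0.363% of genes) and leaving out the LAPC4 pair gave 1 (0.225% of genes), so whether a member is called depends on the tool, the filter and the pairs used. The all-gene split at an unadjusted p under 0.05 was 1672 higher and 1174 lower with TMM, 1158 and 1603 with library totals and 1233 and 1563 with factors from protein-coding genes, and the members' split moved to 0 higher and 43 lower in both of the latter.

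U3, which acts in the early cleavages of the ribosomal RNA precursor, was the most abundant member by normalised CPM in every library and was lower in every resistant line. SNORD3A had 4780 normalised CPM in LNCaP against 1696 in LNCaP-abl, 4856 in VCaP against 2962 in VCaP-CR, and 3542 in LAPC4 against 1448 in LAPC4-CR. All 3 resistant values lie below all 3 sensitive values. The resistant line was 2.82-fold, 1.64-fold and 2.45-fold lower, and edgeR gave a log2 change of -1.17 ± 0.27 (SE) with an adjusted p of 0.444. SNORD3A made up 33.0%, 23.5% and 19.7% of the member counts in the sensitive lines LNCaP, VCaP and LAPC4, and 22.04%, 15.4% and 16.1% in their resistant partners, so its share among the box C/D snoRNAs was also lower in each resistant line.

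The members include 5 U3 copies, SNORD3A, SNORD3B-1, SNORD3B-2, SNORD3C and SNORD3D, whose sequences are 98.2% to 100% identical. U3 entries under other names were not looked for, so these copies may not cover all U3 counts. How the counting treated reads that match several copies is not given in the sources used here, so the split between copies is uncertain and their sum is the firmer value. The sum was 5700 normalised CPM in LNCaP against 2044 in LNCaP-abl, 6150 in VCaP against 3747 in VCaP-CR, and 4419 in LAPC4 against 1753 in LAPC4-CR. Its log2 changes were -1.48, -0.71 and -1.33, with a mean of -1.18 ± 0.41 (SD, n = 3 pairs, exact two-sided sign-flip p = 0.25, the smallest possible). All 5 copies were lower in all 3 pairs. SNORD3B-2 had the largest fitted change among them, edgeR log2 -1.39 ± 0.29 (SE) with an adjusted p of 0.418, which was 0.0145 with DESeq2 and 0.0300 without the filter.

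U14, which also acts in the cleavage of the precursor, was measured in the copies SNORD14A and SNORD14E. The copies SNORD14B, SNORD14C and SNORD14D had 0 counts in all 6 libraries, and each overlaps an exon of RPS13 or HSPA8 in GENCODE 29. The values of SNORD14A and SNORD14E therefore do not stand for all U14. SNORD14E, in an intron of HSPA8 (the constitutive HSC70 chaperone), had 168 normalised CPM in LNCaP against 145 in LNCaP-abl, 207 in VCaP against 299 in VCaP-CR, and 364 in LAPC4 against 179 in LAPC4-CR. SNORD14A, in RPS13, was about an order of magnitude lower, with 15.1 and 19.2, 15.5 and 23.9, and 20.7 and 14.1. The changes of both were positive in the VCaP pair and negative in the LAPC4 pair, and edgeR gave adjusted p values of 0.909 and 0.954.

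SNORD104 was higher in LNCaP-abl, where most members were lower, and in VCaP-CR, where most were higher. It had 762 normalised CPM in LNCaP against 1227 in LNCaP-abl, 1437 in VCaP against 1932 in VCaP-CR, and 1172 in LAPC4 against 1052 in LAPC4-CR. The groups overlap, and the log2 changes were 0.69, 0.43 and -0.16 (edgeR log2 0.32 ± 0.28 SE, adjusted p = 0.818). On the scale of FPKM, which divides by gene length, its mean of 17635 was the highest of the members, ahead of 15086 for SNORD3A, and in LNCaP-abl it stood at 17448 FPKM against 7814 FPKM for SNORD3A. Its share of the member counts was 5.26% in LNCaP against 15.9% in LNCaP-abl.

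The next most abundant members by normalised CPM included SNORD15B, SNORD12B, SNORD17, SNORD30, SNORD12C, SNORD100 and SNORD10. The 10 most abundant members, SNORD3A and SNORD104 among them, held between 48.3% of the member counts in LAPC4 and 60.0% in LNCaP-abl. SNORD10, in EIF4A1, an RNA helicase of translation initiation, had log2 changes of -0.61, -0.44 and -0.75. SNORD100, in RPS12, had 0.50, 0.58 and -1.33. It was 2.51-fold lower in LAPC4-CR and higher in the resistant line of the other pairs, with an edgeR adjusted p of 0.988. SNORD30, in the noncoding host SNHG1, had -0.79, 0.21 and -1.04.

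**Figure D3:**
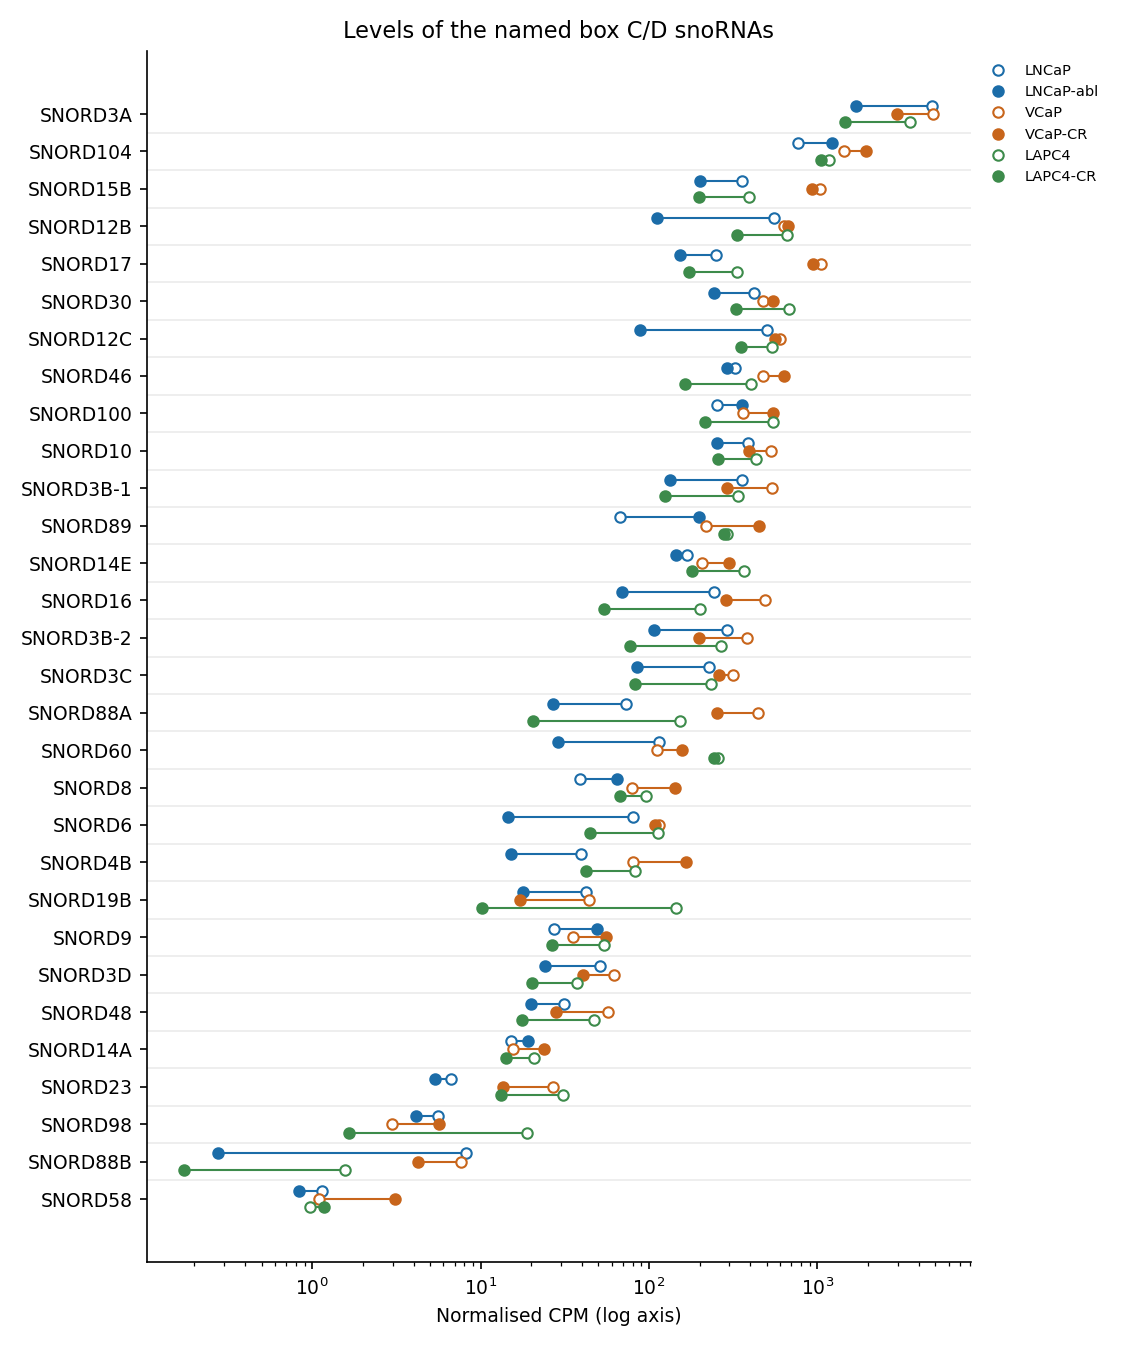
Normalised CPM (log axis) of the 30 named box C/D snoRNAs in the 6 libraries, with open circles for the sensitive line and filled circles for the resistant line of the same color, joined by a line. SNORD3A and the other U3 copies have every filled circle to the left of its open circle, SNORD104 does not, and SNORD19B, SNORD88A and SNORD88B have long lines.

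SNORD88A, SNORD88B and SNORD88C, which lie in C19orf48, were lower in all 3 resistant lines together with their host. SNORD88A had 72.7 normalised CPM in LNCaP against 26.8 in LNCaP-abl, 440 in VCaP against 253 in VCaP-CR, and 153 in LAPC4 against 20.6 in LAPC4-CR. SNORD88C had 155 and 56.6, 987 and 625, and 303 and 41.5 in the same order. Within each pair the resistant line was lower, but VCaP-CR stood above LNCaP and LAPC4, so the groups overlap. The 3 copies summed gave log2 changes of -1.50, -0.70 and -2.88, and C19orf48 itself gave -1.71, -0.49 and -1.66. EdgeR gave log2 -1.70 ± 0.41 (SE) for SNORD88A and -1.65 ± 0.41 for SNORD88C, both with an adjusted p of 0.477; DESeq2 gave 0.0167 and 0.0260.

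SNORD88B was near the floor of counting in 2 resistant lines. It had 85 counts in LNCaP against 3 in LNCaP-abl, 77 in VCaP against 66 in VCaP-CR, and 21 in LAPC4 against 4 in LAPC4-CR. The ratio of LNCaP to LNCaP-abl after scaling was 29.4, with an exact 95% interval of 9.74 to 146 that covers counting error only, and that of LAPC4 to LAPC4-CR was 9.0 (3.04 to 36.1). In GENCODE 29, SNORD88B and SNORD88C overlap an exon of C19orf48 and SNORD88A does not. How many of their counts came from host transcripts was not tested.

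SNORD19B was the only member at least 2-fold lower in all 3 pairs, against 0.065% of genes tested. It lies within GNL3 (nucleostemin, a nucleolar GTPase) at chr3:52697938-52698017 in hg18, the build of the tables. It had 42.2 normalised CPM in LNCaP against 17.9 in LNCaP-abl, 43.7 in VCaP against 17.1 in VCaP-CR, and 145 in LAPC4 against 10.1 in LAPC4-CR. All resistant values lie below all sensitive values, and the resistant lines were 2.32-fold, 2.52-fold and 13.6-fold lower. EdgeR gave log2 -2.10 ± 0.52 (SE) and an adjusted p of 0.477, which ranged from 0.00225 without the LNCaP pair to 1.00 without the block over the 12 alternatives. GNL3 had log2 changes of -0.47, 0.05 and 0.65, so in the LAPC4 pair the snoRNA was lower and its host higher. In GENCODE 29 SNORD19B overlaps an exon of GNL3, and how reads in the overlap were assigned was not tested. The other members in the same host did not follow it in the VCaP pair, where SNORD19 had 0.23 and SNORD69 0.17.

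SNORD16, in the ribosomal protein gene RPL4, was lower in each resistant line. It had 242 normalised CPM in LNCaP against 69.0 in LNCaP-abl, 488 in VCaP against 287 in VCaP-CR, and 200 in LAPC4 against 54.1 in LAPC4-CR. VCaP-CR stood above LNCaP and LAPC4, so the groups overlap although the resistant line was lower within each pair. EdgeR gave log2 -1.49 ± 0.32 (SE), an adjusted p of 0.418, and DESeq2 an adjusted p of 0.0144. RPL4 had log2 changes of -0.47, 0.10 and -0.46, each closer to 0 than that of the snoRNA. SNORD16 overlaps an RPL4 exon in GENCODE 29.

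A few members were higher in LNCaP-abl than in LNCaP. SNORD89, in RNF149, a RING-type ubiquitin ligase, had 67.2 normalised CPM in LNCaP against 199 in LNCaP-abl, 217 in VCaP against 447 in VCaP-CR, and 290 in LAPC4 against 277 in LAPC4-CR. It was 2.94-fold higher in LNCaP-abl and 2.06-fold higher in VCaP-CR, and in the LAPC4 pair the log2 change was -0.07. EdgeR gave log2 0.85 ± 0.35 (SE) and an adjusted p of 0.614. RNF149 had log2 changes of 1.0, 0.23 and 0.00, and SNORD89 overlaps one of its exons in GENCODE 29. SNORD8 and SNORD9, both in CHD8, a chromatin remodeller, had log2 changes of 0.72 and 0.84 in LNCaP-abl, 0.84 and 0.65 in VCaP-CR, and -0.51 and -1.03 in LAPC4-CR.

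Other members were named for their rank among the largest rises or falls of a pair. In the LNCaP pair SNORD6, in TAF1D, had 80.04 and 14.6 normalised CPM, a log2 change of -2.42, beside -0.07 and -1.34 in the VCaP and LAPC4 pairs. SNORD60 had -1.97 there, beside 0.49 and -0.07, and was named because -0.07 was among the 3 highest changes of the LAPC4 pair. In the LAPC4 pair SNORD98, in CCAR1, had 253 counts and 38 counts, a log2 change of -3.17, beside -0.38 and 0.83. In the VCaP pair SNORD48 and SNORD23 had -1.0 and -0.97, and in the LAPC4 pair both differed more, with -1.40 and -1.18. SNORD58 had 1.17 in the VCaP pair, from 11 to 48 counts, and 0.19 in the LAPC4 pair. It was named for both pairs and for its edgeR p among higher members. EdgeR called none of these 6, with adjusted p values between 0.523 and 0.831.

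SNORD4B, in RPL23A, differed in opposite directions in 2 pairs. It had 39.5 normalised CPM in LNCaP against 15.2 in LNCaP-abl, but 80.3 in VCaP against 165 in VCaP-CR. In LAPC4 it had 82.3 and in LAPC4-CR 42.0. The log2 changes of -1.35, 1.03 and -0.96 stand beside host changes of 0.06, 0.25 and -0.46, and in GENCODE 29 SNORD4B overlaps an exon of this host. SNORD42A and SNORD42B in the same host had the same signs, with -0.52 and -1.32 for LNCaP-abl, 0.31 and 0.70 for VCaP-CR, and -1.17 and -1.38 for LAPC4-CR.

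Of the 104 members, 90 lay within a host gene of the tables, in 59 hosts. The hosts' median change over these members was -0.07, 0.05 and -0.06 over the pairs of LNCaP, VCaP and LAPC4, while the members' median was -0.85, 0.22 and -1.12. In the LNCaP pair 71 of 90 members lay below their host and 35 were lower while the host was higher. In the LAPC4 pair 80 lay below and 38 were lower with a higher host, and in the VCaP pair 35 lay below. The Pearson correlation of member and host change over the 90 members was 0.32, 0.41 and 0.13; members of one host share its value, and a snoRNA's reads may also be counted for an overlapping host.

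**Figure D4:**
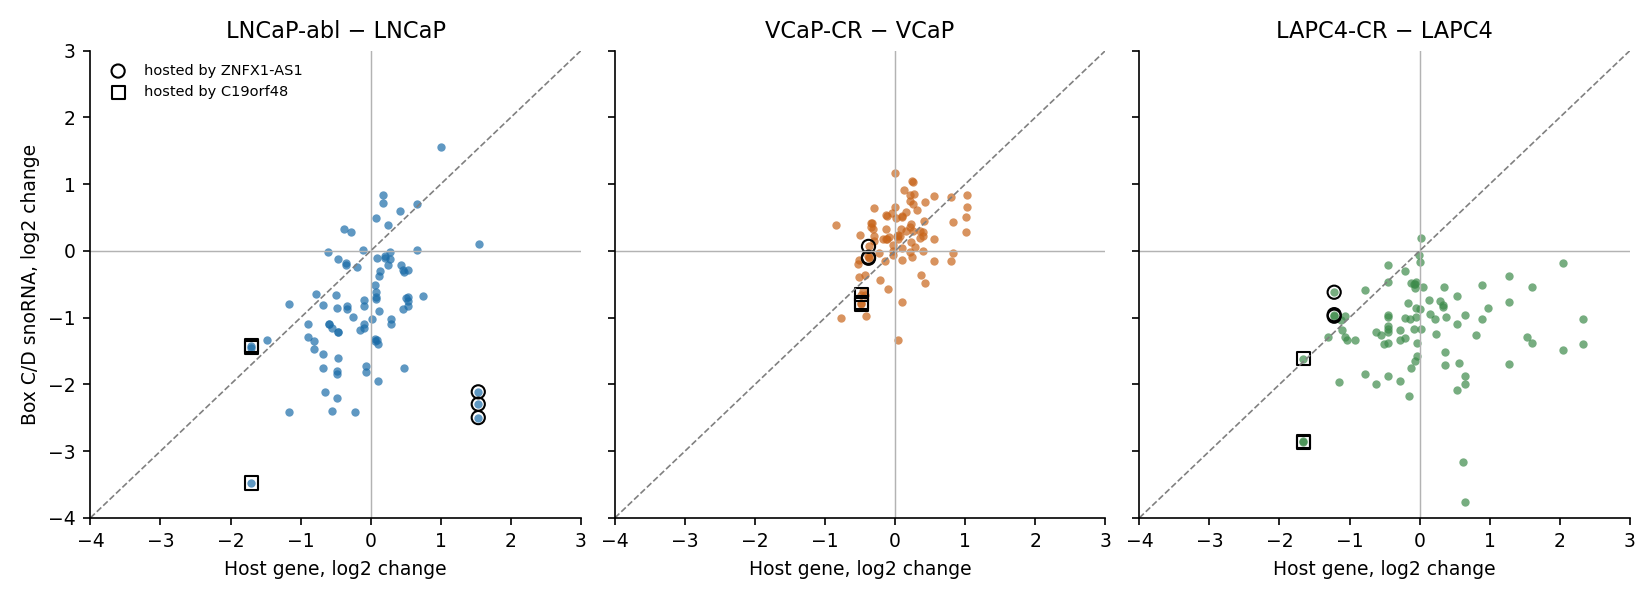
Log2 change (resistant minus sensitive) of the host gene (horizontal) and of the box C/D snoRNA within it (vertical), 90 members per pair; the dashed line marks equal changes. In the LNCaP and LAPC4 pairs 71 and 80 members lie below the line; circles mark the 3 members in ZNFX1-AS1 and squares the 3 in C19orf48.

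The snoRNAs of ZNFX1-AS1 (ZFAS1, a noncoding host gene) went against their host in the LNCaP pair. SNORD12, SNORD12B and SNORD12C summed to 1233 normalised CPM in LNCaP against 242 in LNCaP-abl, to 1416 in VCaP against 1395 in VCaP-CR, and to 1585 in LAPC4 against 884 in LAPC4-CR. The host had 72.8 and 212, 153 and 118, and 151 and 64.5 in the same order. The log2 change of the sum was -2.35 in the LNCaP pair beside 1.54 for the host, and in the LAPC4 pair it was -0.84 beside -1.22. LNCaP-abl thus held the lowest level of these snoRNAs and the highest level of the host among the 6 libraries. SNORD12 overlaps a host exon in GENCODE 29, and SNORD12B and SNORD12C, printed above, do not.

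The members were also grouped by the kind of host. The 20 members in ribosomal protein genes were lower in 18 cases in LNCaP-abl, 5 in VCaP-CR and 20 in LAPC4-CR, with medians of -0.99, 0.26 and -1.15. The 12 members in long noncoding hosts were lower in 12, 8 and 12 cases, with medians of -1.16, -0.10 and -0.98. The 58 members in other protein-coding hosts had medians of -0.78, 0.28 and -1.18. Members over 120 nucleotides, 10 in number and 5 of them U3 copies, had a median of -0.41 in the VCaP pair, while the 56 of up to 80 nucleotides had 0.23 there and the 38 between had 0.26.

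Across the 96 members with a mean of at least 20 counts, the change correlated with length at r = 0.00 for LNCaP, -0.37 for VCaP and -0.04 for LAPC4. With GC content, over the 84 of them with a matched sequence, r was 0.20, -0.48 and -0.19. Changes in different pairs share no library, and they correlated at r = 0.30 between the LNCaP and VCaP pairs, 0.16 between LNCaP and LAPC4 and 0.48 between VCaP and LAPC4. These are descriptions across members, which are not independent replicates.

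Some members differed between the 3 lineages. The edgeR F test of lineage, which uses the sensitive and resistant library of each lineage as its 2 libraries although they differ in line and medium, called 13 of the 104 members at 5%, against 7.52% of genes tested. Of these 13, 12 had their highest lineage mean in VCaP and 1 in LAPC4. The 1 in LAPC4, SNORD123, became a member only through its counts in that lineage, so its call is not read as support. Over all members the highest lineage was VCaP for 71, LAPC4 for 31 and LNCaP for 2, and the share over all genes is not given here. The box H/ACA snoRNAs were also highest in VCaP and VCaP-CR, with summed normalised CPM of 35500 and 26352 against at most 17195 elsewhere. The 7SK RNA was highest there too, with 109740 and 82487. By contrast, 7SL and the Y RNAs (short RNAs bound by the Ro protein) were highest in LAPC4, with 3458.5 and 8939. In LAPC4-CR they had 1744.5 and 3569.7, so the high level was not shared by the whole lineage. The number called was 33 without the filter on low counts, against 11.7% of genes. It also moved, as did the number over all genes, when 1 library was left out, which leaves 1 library in a lineage.

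SNORD17, in an intron of SNX5, a sorting nexin, had 1055 normalised CPM in VCaP against 947 in VCaP-CR, beside 250 in LNCaP, 154 in LNCaP-abl, 332 in LAPC4 against 172 in LAPC4-CR. The 2 VCaP libraries lie above the other 4, and the adjusted p of the lineage test was 0.00444. SNORD15B, in RPS3, had 1030 and 934 in the VCaP lineage against at most 393 elsewhere (adjusted p = 0.0114). SNORD88C and SNORD88A were also highest in VCaP and VCaP-CR (adjusted p = 0.00621 and 0.00821), as were SNORD16 (0.0249), SNORD64 (0.0140), SNORD90 (0.0200), SNORD35B (0.0448), SNORD42B (0.0433) and SNORD109B (0.0452), each by the edgeR F test. SNORD109A, whose sequence is 100% identical to SNORD109B, had an adjusted p of 0.138 in that test, so the call on SNORD109B rests on a split of reads that is uncertain. SNORD93 (0.0112) was higher in the VCaP and LAPC4 lineages than in LNCaP and LNCaP-abl, and SNORD108 (0.0263) was lowest in the LAPC4 lineage, with 6 and 3 counts.

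SNORD123 was counted almost only in the LAPC4 lineage. It had 625 counts in LAPC4 against 266 in LAPC4-CR, 1 in LNCaP, 1 in LNCaP-abl and 0 in both VCaP libraries, where 0 counts allow up to 3. The adjusted p of the edgeR F test was 0.00031. After scaling, LAPC4-CR was 4.03-fold lower than LAPC4 (exact 95% interval 3.48 to 4.67, counting error only). Its host, the noncoding CTD-2001E22.2, had 19.9 and 8.67 normalised CPM in LAPC4 and LAPC4-CR and at most 1.25 elsewhere.

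**Figure D5:**
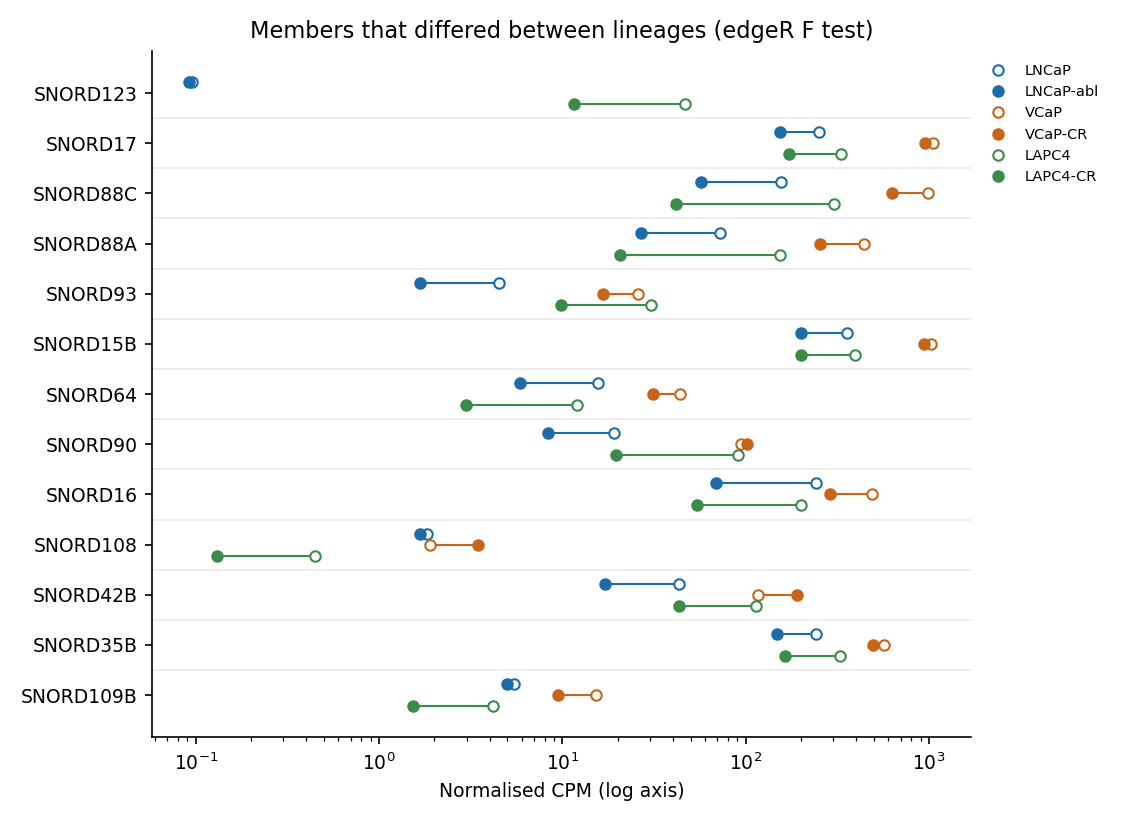
Normalised CPM (log axis) of the 13 members called by the edgeR F test of lineage, with open circles for sensitive and filled circles for resistant lines. The VCaP lineage has the highest mean for 12 of them; SNORD123 had 0 counts in VCaP and VCaP-CR, which a log axis cannot show.

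Genes of the snoRNP core, its assembly and U3 processing were also followed. Of 32 such genes edgeR called 0 in either direction (0.0% of genes), the smallest adjusted p was 0.520, and at an unadjusted p under 0.05 1 was higher, HSP90AA1, and 0 were lower. Their median changes were 0.12 for LNCaP, 0.04 for VCaP and 0.48 for LAPC4. In the LAPC4 pair 12 of 32 were at least 2-fold higher (5.58% of genes) and 0 were at least 2-fold lower. FBL, the methyltransferase fibrillarin, had log2 changes of -0.45, -0.51 and 0.10, and NOP56 had -0.50, -0.42 and 0.00. NOP58, which hosts SNORD11, SNORD11B and SNORD70, had -0.10, 0.22 and 1.28, while the sum of its 3 snoRNAs had -0.94, 0.71 and -0.96. ZNHIT6, an assembly factor, had 0.30, 0.27 and 1.82.

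Some well-known box C/D snoRNAs were not measurable here. Of the 64 SNORD names below the minimum, 45 had 0 counts in all 6 libraries. SNORD44, SNORD47 and SNORD76, hosted by GAS5, are among these 45. Of their table entries that could be placed in GENCODE 29, 24 of 29 (82.8%) overlap an exon of a longer gene on the same strand, against 31 of 125 (24.8%) of the members' entries. Whether reads in such overlaps were left uncounted was not tested, and a 0 for these names is not read as absence of the snoRNA. Of the members, 29 had such an overlap, 47 had every entry placed and no overlap, and 28 had an entry that was not placed and no overlap among the rest. The 47 were set apart after the data were seen. Among them, 21 were at least 2-fold lower in LNCaP-abl (4.65% of genes), 0 in VCaP-CR (1.85%) and 27 in LAPC4-CR (4.71%). The part of exon overlap in the changes was not tested.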

How the data were processed

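RNA-seq libraries of total RNA from 6 established prostate cancer cell lines were used, 1 per line (RNeasy extraction and SOLiD Total RNA-Seq kit, per the labels' protocols). Per the submitters' processing notes, HTSeq and hg18 were used; the sources used here do not give the aligner, annotation, strand setting or treatment of multiply mapped reads. The deposited tables give a whole-number count per gene, per the file headers. The FPKM values deposited by the authors equal the count divided by gene length and the summed counts within 1% for at least 99.998% of genes; gene length is a deposited column.

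Entries of the same name were summed. Table starts, which count from 0, were raised by 1. Pairs were numbered by line name (LNCaP 1, VCaP 2, LAPC4 3); same-numbered libraries come from the same parental line, and their deviations from the group means correlated at 0.352, 0.575 and 0.469. Genes with at least 10 counts over the 6 libraries (36946) were tested with edgeR 4.0.16 (quasi-likelihood, TMM, parental line as block, R 4.3.3) with Benjamini-Hochberg adjustment at 5%; the lineage F test came from the same model. All 104 members passed this filter by their own rule. Whether the libraries stand for separate cultures beyond the line is not stated, so p-values measure the spread between these libraries. On simulated counts with a dispersion of 0.115, this test found 80% of 100 genes with a 4-fold change and 100% of 100 with a 16-fold change. It made 5 false calls among 36746 unchanged genes. The simulation gave all genes the same dispersion, no difference between lines and the same fold in every pair. Changed genes were drawn only from the more abundant ones. It therefore does not show what the test would find in these libraries, and the lack of calls is not read as absence of change. Pair changes use log2(normalised CPM + 0.5) with no test. DESeq2 1.42.0, limma-voom 3.58.1, other scalings, filters and left-out pairs were alternatives. GENCODE 29 gave sequences and exon overlap only; it was matched by gene identifier or symbol, and no coordinate was converted between builds.

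The members, the lists and the tests were chosen with earlier results of these data known. Named members are the 10 most abundant and the 3 largest rises and falls per pair among members with a mean of at least 20 counts. Those at least 2-fold changed in all 3 pairs and the 3 smallest edgeR p values per direction were added. U3, U8, U13, U14 and U22 were also listed, but no U8, U13 or U22 name was a member. Members in the host and lineage paragraphs were named by host group or by the lineage test. SNORD88C, SNORD12, SNORD123 and the names at 0 counts were named after their values were seen. A result on the host gene of 1 of the 10 most abundant members is not reported here.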

Additional observations from a re-analysis of the deposited data

Results flagged for a closer look

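SNORD4B, in RPL23A, was singled out as the only named member with a mean of at least 20 counts that was at least 2-fold lower in one pair and at least 2-fold higher in another: the difference in log2 change between the LNCaP and VCaP pairs was -2.38. With 1 library per state in each pair, this difference was not tested. Other members had opposite signs with a positive change under 2-fold, among them SNORD72 (-2.41 and 0.32) and SNORD60 (-1.97 and 0.49) in the same pairs.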

How the results depend on the processing

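The numbers called across the 3 pairs depended on the tool and the filter. Against 0 genes and 0 members with edgeR, size factors of the RLE kind gave 2 genes higher and 1 lower, limma-voom 2 and 1, DESeq2 120 and 70 with 7 members lower, and no filter 114 and 82 with 8 members lower. Leaving out one pair at a time gave 0 to 189 genes higher, 0 to 134 lower and 0 to 3 members lower. Without the replicate block, edgeR called 0 genes and 0 members, with 7 members lower at an unadjusted p under 0.05 against 34 with it; it changed no other call, and SNORD4B had a log2 change of 0.14 in place of -0.46. The lineage test called 2778 genes and 13 members, 5260 and 33 without the filter, and between 1636 and 5812 genes and 4 and 38 members when 1 library was left out, an alternative chosen after seeing the data. The cause of these differences was not tested, apart from the smaller number of libraries in the last.

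The summed level in the VCaP pair, -0.11, was 0.037 without SNORD3A and 0.0015 without the 3 most abundant members. It was 0.080 over the 97 members left without U3, U8, U13, U14 and U22, of which only U3 and U14 copies were members. The other pairs kept their direction. Members at least 2-fold higher in the VCaP pair were 5 with a pseudocount of 0.1 CPM, and 1 was at least 2-fold lower with 2 CPM. Relative to the median member of each pair, 10 were higher and 12 lower in the LNCaP pair, 0 and 6 in the VCaP pair, and 6 and 6 in the LAPC4 pair. Among the 77 members with 1 table entry, 1 was lower in the VCaP pair. Among the 47 placed in full with no exon overlap, 0 were higher and 21 lower in the LNCaP pair, 1 higher and 0 lower in the VCaP pair, and 27 lower in the LAPC4 pair; both subsets were chosen after seeing the data. Leaving out one pair gave 1 to 29 members at least 2-fold lower in all remaining pairs, the 29 without the VCaP pair, and 0 to 1 higher. No share of all genes tested is given beside the counts of this paragraph, so they are not read against all genes.

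Of the named members' log2 changes over 360 combinations of member and alternative, 333 kept their direction and side of the threshold, 16 passed the threshold and 11 reversed. Over the left-out pairs SNORD4B ranged from -1.2 to 0.034, SNORD60 from -1.05 to 0.21, SNORD9 from -0.19 to 0.73, SNORD14A from -0.14 to 0.45, SNORD58 from -0.070 to 0.90, SNORD100 from -0.44 to 0.51, SNORD14E from -0.65 to 0.13, SNORD46 from -0.77 to 0.085 and SNORD98 from -2.01 to 0.22; the cause was not tested. With 1 library per line, differences between cultures of a line cannot be measured, and members near the minimum, such as SNORD88 with at most 12 counts, carry large counting error.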

Other observations

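The SNORD113 to SNORD116 copies, which lie in 2 imprinted clusters and were not members, held 0.148% of counts for LNCaP against 0.110% for LNCaP-abl, 0.406% in VCaP against 0.390% in VCaP-CR, and 0.110% in LAPC4 against 0.0259% in LAPC4-CR. Their summed log2 changes were -0.15, -0.05 and -2.01. Among the members, SNORD64, SNORD108, SNORD109A and SNORD109B lie in the same region of chromosome 15 as SNORD115 and SNORD116, and they summed to 27.03 and 16.5 normalised CPM in the LNCaP pair, 73.4 and 53.6 in the VCaP pair, and 22.8 and 5.79 in the LAPC4 pair. The highest levels of both groups were in the VCaP lineage and the lowest in LAPC4-CR. SNORD109A and SNORD109B are 100% identical, so their counts cannot be told apart.

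The Y RNAs, short RNAs bound by the Ro protein, had summed log2 changes of 0.08, -0.12 and -1.32, and the small Cajal body RNAs 0.16, 0.14 and -0.69. In the LNCaP pair both were thus slightly above their parent while the box C/D sum was at -0.91, and in the LAPC4 pair both were below it.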
